A study of Petromyzon marinus with 2 samples.

Results

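Müller glia of the adult sea lamprey retina were chosen by their measured UMIs of GLUL and AQP8, as the cell barcodes that carried many transcripts of GLUL together with any transcript of AQP8. A barcode was a member if it had at least 500 unique molecular identifiers (UMIs, each standing for 1 captured RNA molecule), at least 330 detected genes, at least 5 UMIs of GLUL and at least 1 UMI of AQP8. This rule took 1126 of the 28891 barcodes, 202 of 12933 in replicate 1 and 924 of 15958 in replicate 2. The members were compared, within each library, with the barcodes of at least 2000 UMIs that had 0 UMIs of AQP8, of which there were 7375 in replicate 1 and 9245 in replicate 2. These are called comparison barcodes below, and they hold retinal cells of many kinds.

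The series holds 2 droplet-based single-cell RNA-seq libraries of the retina of Petromyzon marinus, a jawless vertebrate. Both came from wild adult lampreys, and the retinas were dissociated with papain. The labels give no genotype, no treatment and no condition that differs between the libraries, and the sources used here do not say which animals gave which library, so every test measures the spread between these 2 libraries only. The labels mention a cell sort that the methods do not describe, and a sort could set the share of any cell type.

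Müller glia are the radial glia of the vertebrate retina and span its whole thickness. They take up glutamate released by neurons and turn it into glutamine with glutamine synthetase, the product of GLUL, and they move water and ions, store glycogen and seal the outer border of the retina with adherens junctions. In jawed vertebrates they carry Notch signalling genes such as HES1, and in fish they can divide and replace lost neurons. The roles of genes given below are those known in jawed vertebrates, and the lamprey gene names rest on sequence likeness, so that a name does not establish the orthologue.

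GLUL and AQP8 chose the cells and are described without a test. Members had a lowest, median and highest GLUL count of 5, 35 and 106 UMIs in replicate 1 and 5, 26 and 89 UMIs in replicate 2, whereas the median comparison barcode had 1 GLUL UMI and the highest had 10 in both libraries. AQP8, which encodes a water channel of the aquaporin family, had a lowest, median and highest count of 1, 51.5 and 163 UMIs in members of replicate 1 and 1, 40 and 193 UMIs in those of replicate 2. Members held 81.8% and 88.3% of all AQP8 UMIs in replicates 1 and 2, and 42.8% and 65.1% of all GLUL UMIs, although they held only 4.27% and 11.5% of all UMIs. Among barcodes that passed the limits on UMIs and genes, 15.2% in replicate 1 and 28.8% in replicate 2 had at least 1 AQP8 UMI, so a single AQP8 UMI was common outside the members too.

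The share of members among passing barcodes was 1.57% in replicate 1 (95% Clopper-Pearson interval 1.36 to 1.79%) and 5.80% in replicate 2 (5.44 to 6.17%), where the intervals cover counting error only. The share was thus higher in replicate 2 by far more than counting error. With 1 library per replicate no test of this difference was possible, and a part of the sort or the dissociation in it was not tested. Members were also deeper than comparison barcodes, with a median of 17959.5 UMIs and 4954 genes against 7191 UMIs and 3085 genes in replicate 1, and 13709 UMIs and 4353 genes against 6312 UMIs and 2801 genes in replicate 2. A minimum of 5 GLUL UMIs is met more easily by deep barcodes. Its part in the depth of members was not tested, and depth is not read as a trait of the cells. Members with 10 or more AQP8 UMIs had medians of 17557 and 13769.5 UMIs in replicates 1 and 2, at median GLUL counts of 44 and 28. Barcodes with at least 5 GLUL UMIs and 0 AQP8 UMIs had medians of 15565.5 and 13579.5 UMIs in replicates 1 and 2. The libraries shared 83 barcode sequences, of which 1 was a member in both.

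The members were not uniform under the rule. Split by their AQP8 count, a set of few AQP8 UMIs stood apart in both libraries. In replicate 1, 50 members (24.8%) had 1 to 4 AQP8 UMIs, 4 (1.98%) had 5 to 9 and 148 (73.3%) had 10 or more, and in replicate 2 these numbers were 75 (8.12%), 25 (2.71%) and 824 (89.2%). CLU, the gene of the secreted chaperone clusterin and a Müller glia marker that the rule did not use, had 77.5 and 187 unscaled CPM (the UMIs of a gene in each 1000000 UMIs of the set) in the members of 1 to 4 AQP8 UMIs in replicates 1 and 2, against 61.6 and 71.7 in comparison barcodes. In members of 10 or more AQP8 UMIs it had 6023 and 4718 unscaled CPM, and 100% of these members held a CLU UMI in both libraries. The same held for the sum of the synaptic vesicle genes, with 7478 and 7393 unscaled CPM at 1 to 4 AQP8 UMIs and 1217 and 1533 at 10 or more, against 7595 and 6861 in comparison barcodes.

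**Figure D1:**
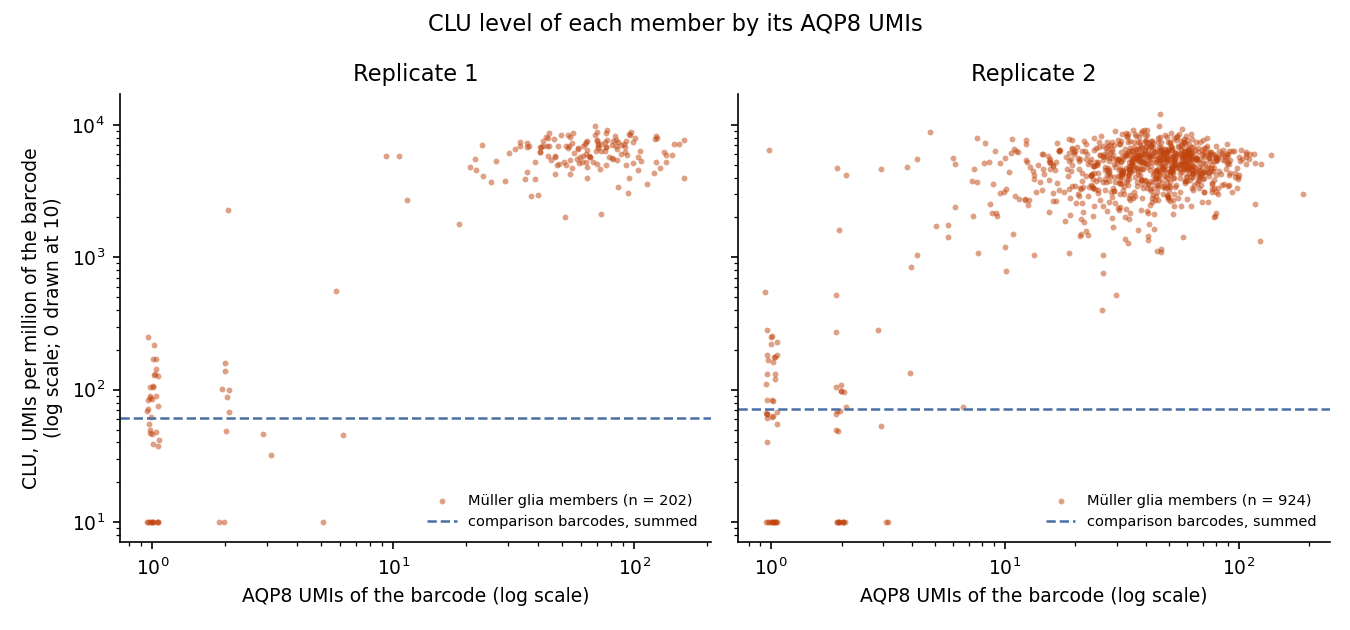
CLU level of each Müller glia member (CPM of that barcode, log scale, 0 drawn at 10) against its AQP8 UMIs (log scale), with 1 panel per replicate and the summed comparison barcodes as a dashed line. Summed, members of 1 to 4 AQP8 UMIs had 77.5 and 187, against 61.6 and 71.7 for the dashed line. Single ones spread from 0 upwards, and in replicate 2 some reach the level of members of 10 or more. Members of 10 or more lie far above the line (6023 and 4718 summed).

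By these genes the label therefore went with the members of 10 or more AQP8 UMIs. The members of 1 to 4 AQP8 UMIs had summed levels far nearer to those of comparison barcodes. The markers were chosen with earlier results of these data known, so this is not an independent check of the label. At the GLUL limit, the 31 members of replicate 1 with exactly 5 GLUL UMIs had 87.2 unscaled CPM of CLU, and the 53 barcodes just outside, with 4 GLUL UMIs and AQP8, had 79.7. In replicate 2 the 50 members with 5 GLUL UMIs had 319 unscaled CPM of CLU, and the 129 barcodes with 4 GLUL UMIs and AQP8 had 144. Within members of 10 or more AQP8 UMIs the CLU level varied less over the AQP8 ranges 10 to 19, 20 to 39, 40 to 79 and 80 or more. It lay between 2149 and 6237 unscaled CPM in replicate 1 and between 4159 and 4972 in replicate 2. The value of 2149 came from only 3 members, those of 10 to 19 AQP8 UMIs. Each comparison below was therefore also made with the members of 10 or more AQP8 UMIs, a limit chosen after the data were seen, and some of those values are given beside the results.

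For the comparison, UMIs were summed over members and over comparison barcodes in each library, scaled between the 4 sums by edgeR's TMM method to scaled CPM, and tested with edgeR's quasi-likelihood test with the library as a block. A gene was called at a Benjamini-Hochberg adjusted p under 0.05 and a change of at least 2-fold. Of 16973 genes tested, 2459 (14.5%) were called higher in Müller glia and 2265 (13.3%) lower, 27.8% in all, and with the members of 10 or more AQP8 UMIs these counts were 2838 (16.8%) and 3109 (18.4%) of 16864. The calls divided as 52.1% higher under TMM scaling and 41.8% higher when only library totals were used, which moved the median of all genes by -0.19 on the log2 scale. Log2 fold changes are of members over comparison barcodes throughout, each with its standard error (SE).

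Both Müller glia markers outside the rule were far higher in members. CLU (MSTRG.5316) had 4584 and 4820 scaled CPM in members of replicates 1 and 2, against 56.0 and 69.1 scaled CPM in comparison barcodes, a log2 fold change of 6.24 (SE 0.23, edgeR adjusted p = 3.77e-07). HES1 (MSTRG.6189), a transcriptional repressor switched on by Notch, had 52.2 and 62.2 scaled CPM against 1.59 and 1.30, a log2 fold change of 5.31 (SE 0.19, edgeR adjusted p = 3.38e-07). The member sums lay far above the comparison sums in both libraries. For the genes of the rule, GLUL (MSTRG.9787) had 1963 and 2076 scaled CPM in members against 99.0 and 122 in comparison barcodes, and AQP8 (MSTRG.8808) had 2806 and 3141 against 0, which the rule fixed.

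By cell, CLU had a UMI in 93.6% and 97.6% of members of replicates 1 and 2, against 31.7% and 34.1% of comparison barcodes. When each cell was thinned to 2000 UMIs to remove the difference in depth, these shares were 77.1% and 93.1% of members against 10.9% and 13.3% of comparison barcodes. HES1 was sparser, with a UMI in 46.5% and 43.3% of members against 1.46% and 1.03% of comparison barcodes, and in 10.9% and 10.8% against 0.217% and 0.379% after thinning. The shares in comparison barcodes may hold free RNA in the droplets and RNA of the cells themselves, and these were not told apart. The members' shares were several times larger in both libraries.

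The 15 named genes of largest difference higher in members were taken among those with at least 20 scaled CPM in members of both libraries, leaving out GLUL and AQP8. Of these, G6PC, which frees glucose from glucose 6-phosphate, had the largest log2 fold change. It had 658 and 547 scaled CPM in members of replicates 1 and 2 against 1.97 and 2.41 in comparison barcodes (log2 fold change 8.09, SE 0.22, edgeR adjusted p = 1.52e-07). ATP1B3.1, named after a beta subunit of the sodium pump, had 912 and 1338 scaled CPM against 3.999 and 11.3 (log2 fold change 7.34, SE 0.29, edgeR adjusted p = 5.11e-07). MLC1, a membrane protein that astrocytes of mammals carry at their end feet, had 174 and 200.2 scaled CPM against 0.904 and 2.10 (log2 fold change 7.02, SE 0.26, edgeR adjusted p = 3.77e-07). In all 3 the member sums of either library lay far above the comparison sums of both.

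FBLN7, a fibulin of the extracellular matrix, had 31.7 and 98.8 scaled CPM in members against 0.178 and 0.613 in comparison barcodes, and CD109, a surface protein that binds TGF-beta, had 203 and 199 against 1.59 and 1.94. VASN, which also binds TGF-beta, had 82.7 and 120.1 scaled CPM in members against 0.712 and 0.965, COLEC12, a scavenger receptor, had 62.8 and 80.5 against 0.767 and 0.743, and JCAD, a protein of cell junctions, had 28.1 and 45.6 against 0.562 and 0.182. The gene named COL1A1.20 after collagen I had 75.9 and 139.8 scaled CPM against 0.904 and 1.69. Their log2 fold changes lay between 6.37 for COL1A1.20 and 7.36 for FBLN7.

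CYP21A2, named after steroid 21-hydroxylase, had 444 and 599.7 scaled CPM in members against 1.90 and 4.47 in comparison barcodes (log2 fold change 7.44, SE 0.25), ELOVL7, a fatty acid elongase, had 159 and 336 against 1.94 and 3.38 (6.51, SE 0.17), and PAQR6, a membrane progestin receptor, had 339.7 and 579.6 against 4.04 and 6.60 (6.43, SE 0.17). BAG6, SDS and C41H10orf105 completed the 15 named genes of largest difference, with log2 fold changes of 7.30, 6.44 and 6.61. Cells with a UMI ranged from 32.7% for JCAD to 76.7% for ATP1B3.1 among members of replicate 1 and from 41.8% to 93.0% for the same genes in replicate 2. In comparison barcodes the highest share was again that of ATP1B3.1, at 3.65% and 8.73%.

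**Figure D2:**
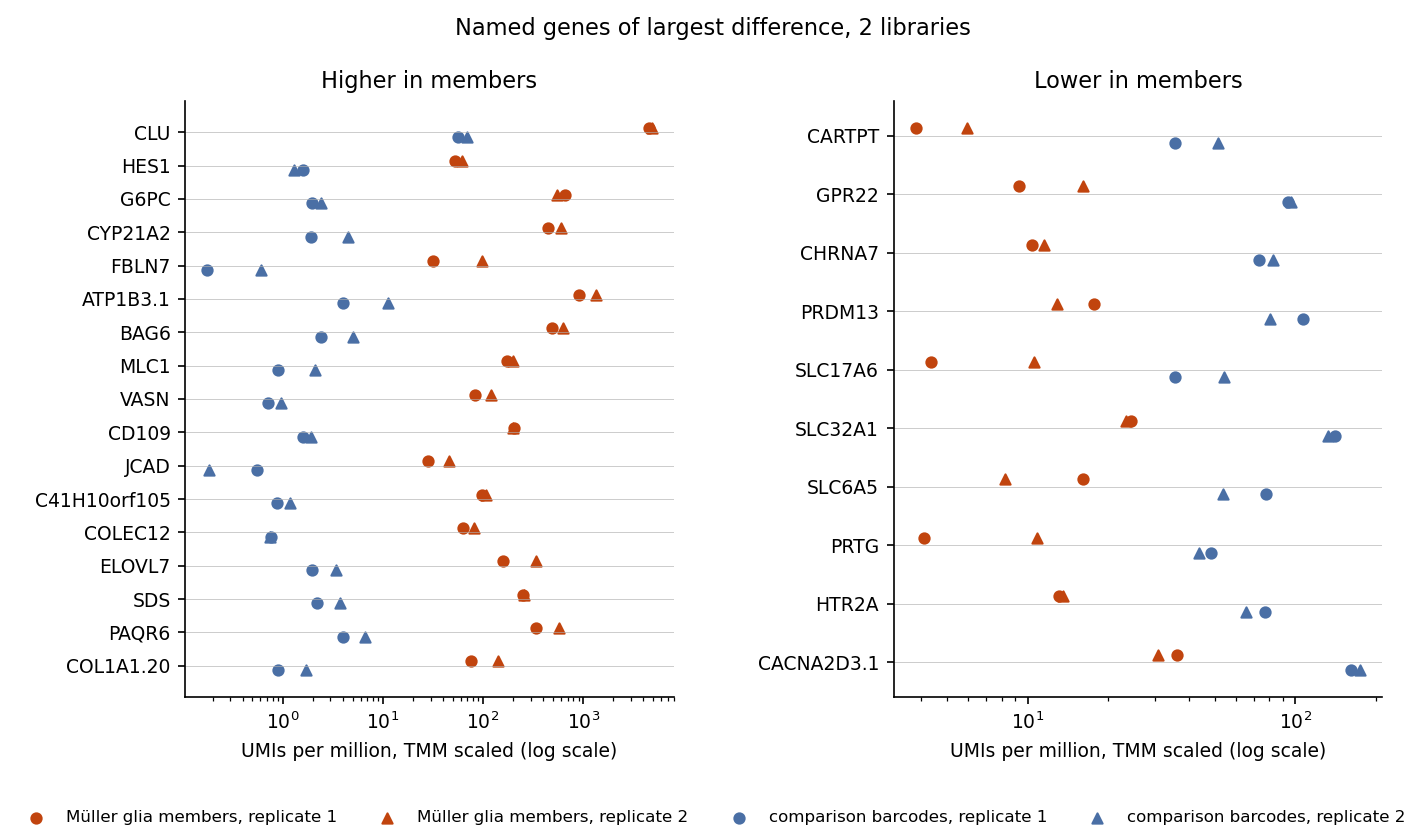
Scaled CPM (log axis) of CLU, HES1 and the 15 named genes of largest difference higher in members (left) and of the 10 lower in members (right), with members above comparison barcodes in each row and a circle for replicate 1 and a triangle for replicate 2. CLU stands at 4584 and 4820 in members against 56.0 and 69.1 in comparison barcodes, and CARTPT at 3.82 and 5.92 against 35.6 and 51.2.

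G6PC was low in the members of few AQP8 UMIs. It had 3.23 unscaled CPM in the 50 members of replicate 1 with 1 to 4 AQP8 UMIs, and 944 in the 45 with 80 or more. In replicate 2 the levels were 8.27 in 75 members and 607 in 61. Comparison barcodes had 2.17 and 2.50 unscaled CPM of G6PC in replicates 1 and 2. At 1 to 4 AQP8 UMIs, ATP1B3.1 had 6.46 and 25.7 unscaled CPM against 4.40 and 11.7 in comparison barcodes. MLC1 had 0 and 2.76 against 0.995 and 2.18. For every gene, the summed member values above include the members of few AQP8 UMIs. Some genes without a symbol differed still more, LOC116946251 with 39.1 and 31.1 scaled CPM in members against 0.0959 and 0.0782 in comparison barcodes (log2 fold change 8.60) and MSTRG.755 with 428 and 651 against 0.863 and 2.32 (8.49), and what they encode is not given in the sources used here.

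By level, and leaving out GLUL and AQP8, the most abundant named transcript of the member sums was FTH1, the heavy chain of the iron store ferritin. It had 7127 and 8249 scaled CPM in members against 2827 and 3437 in comparison barcodes (log2 fold change 1.30, SE 0.21, edgeR adjusted p = 0.00128). CLU followed, and then NRCAM, a cell adhesion protein, with 2997 and 3866 against 841 and 819, and NFIA, a transcription factor of glial cells, with 2205 and 3055 against 917 and 897. PYGL, which breaks down glycogen, was the fifth in this order, with 1984 and 2783 scaled CPM against 36.2 and 55.7 (log2 fold change 5.71, SE 0.20, edgeR adjusted p = 2.90e-07). It was thus abundant in members and low in comparison barcodes. RPLP2, RPL17 and TPT1, which belong to or go with the translation machinery, were called higher with log2 fold changes of 1.49, 1.08 and 1.39.

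2 of the 10 most abundant named genes other than GLUL and AQP8 were not called. BASP1, a protein of the cell cortex and of axons, had 1727 and 1722 scaled CPM in members against 1870 and 1881 in comparison barcodes, and its log2 fold change of -0.12 (SE 0.17, edgeR adjusted p = 0.596) did not exceed the spread. EEF2, an elongation factor of translation, had 1349 and 1512 against 733 and 812, with a log2 fold change of 0.89 (edgeR adjusted p = 0.00231) that stayed under 2-fold and reached 1.02 and a call in the members of 10 or more AQP8 UMIs. UMI totals differ per gene with transcript structure in 3' libraries, so these levels are given in UMIs and not per length.

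The list of genes known from Müller glia of jawed vertebrates was chosen with earlier results known. It includes the markers CLU and HES1, so it is not an independent check of the label. Of its 50 genes 11 could be used, and the median log2 fold change was 2.78 beside -0.07 over all genes tested. Of the 10 tested, 6 were called higher and 0 lower, against 14.5% and 13.3% of all genes. Beside CLU, HES1 and NFIA these were CRYM, a crystallin that binds thyroid hormone, with 70.5 and 69.2 scaled CPM in members against 2.51 and 2.16 in comparison barcodes (log2 fold change 4.91, SE 0.15), S1PR1, a lipid receptor, with 59.8 and 86.4 against 4.18 and 4.61 (4.04, SE 0.16), and CA14, a carbonic anhydrase, with 10.4 and 14.1 against 0.260 and 0.274 (5.51, SE 0.33). DBI, CA14-1 and CD9.2 had log2 fold changes of 0.68, 0.72 and 0.78, under 2-fold. AQP4, the water channel of mammalian Müller glia, had 0.546 and 0.164 scaled CPM in members against 0.383 and 0.574, near 0 in both sets.

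**Figure D3:**
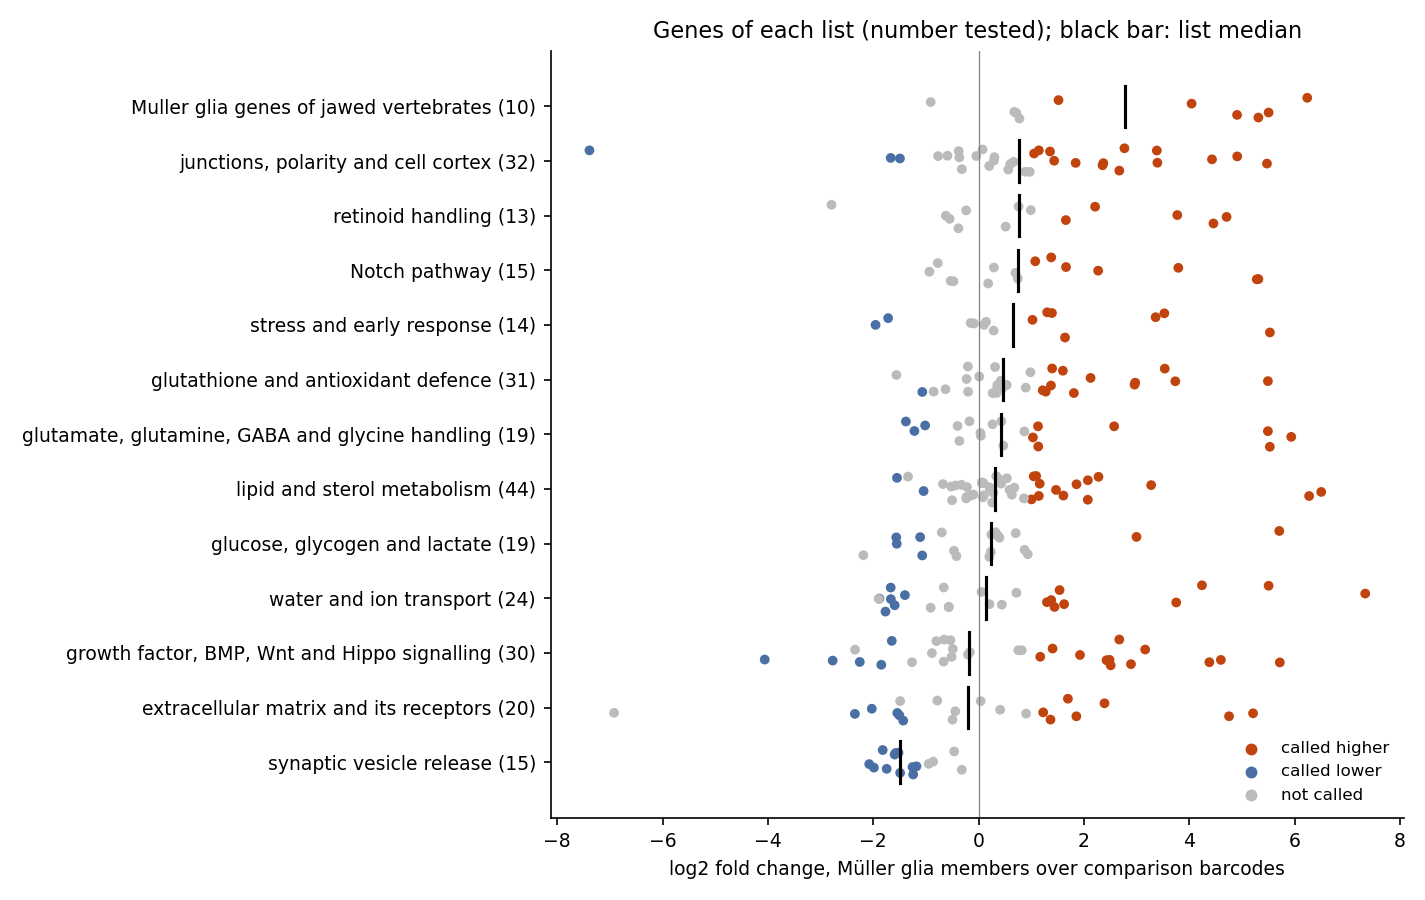
Log2 fold change of Müller glia members over comparison barcodes for each gene of the 13 lists, with the number tested in parentheses, calls in colour and the list median as a black bar. The Müller glia genes of jawed vertebrates have the highest median (2.78) and the synaptic vesicle genes the lowest (-1.49).

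The gene lists below cover only part of each pathway. Numbered copies included, 20 genes were found for 57 names on glutamate, glutamine, GABA and glycine, and 27 for 83 on water and ions. These numbers were 21 for 83 on glucose, 46 for 106 on lipids, 16 for 49 on Notch and 33 for 124 on growth factors. They were 32 for 78 on glutathione, 22 for 125 on matrix and 32 for 118 on junctions. For retinoids, stress and synaptic vesicles they were 15 for 44, 15 for 76 and 15 for 61. The genes of the glutamate list were mixed, with a median log2 fold change of 0.43. Of 19 tested, 7 were called higher, 3 lower and 9 not called, against 14.5% higher and 13.3% lower of all genes. The serine and glycine branch held most of the higher ones. SHMT1, which turns serine into glycine, had 49.7 and 62.5 scaled CPM in members against 0.822 and 1.004 in comparison barcodes (log2 fold change 5.94, SE 0.17), PSPH, which makes serine, had 325.8 and 307.4 against 49.9 and 56.4 (2.57, SE 0.14), and PHGDH and SHMT2 had log2 fold changes of 1.13 each. SLC7A11, which exchanges cystine for glutamate, had 65.8 and 80.3 against 1.31 and 1.94 (5.49, SE 0.16), and AMT of the glycine cleavage system was called higher at only 2.18 and 1.23 scaled CPM. ABAT, which breaks down GABA, SLC6A9, a glycine transporter, and SLC38A11 were called lower, with log2 fold changes of -1.22, -1.01 and -1.38.

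Water and ion transport genes, with AQP8 left out, had a median log2 fold change of 0.13. They divided into 9 higher and 6 lower of 24 tested, against 14.5% and 13.3% of all genes. Of the beta subunits of the sodium pump, ATP1B3.1 was higher as given above, and ATP1B1-1 and ATP1B2 were lower with log2 fold changes of -1.59 and -1.67. Reads of gene copies that are nearly identical in sequence may be divided between them in the counting. The intracellular chloride channel genes CLIC5.1 and CLIC5.3 were higher, with 242 and 146 scaled CPM against 10.4 and 9.46 for CLIC5.1 (4.24, SE 0.18), and the potassium channel genes KCNMA1, KCNJ3 and KCNJ11 were lower, with log2 fold changes of -1.67, -1.77 and -1.88. KCNJ10, the main potassium channel of Müller glia in mammals, had 1 and 6 UMIs in members and was too low to test.

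Of the 19 tested genes of glucose, glycogen and lactate, 2 were called higher, 4 lower and 13 not called. The shares over all genes were 14.5% higher and 13.3% lower, and the share of higher calls was near the former. PYGL and LDHD, a dehydrogenase of D-lactate, were the higher ones of the list. LDHD had 15.02 and 20.2 scaled CPM in members against 1.48 and 3.02 in comparison barcodes. G6PC, called higher with a log2 fold change of 8.09, is not among these 19 genes. The list held the names G6PC1 and G6PC3, which did not match it. ENO1.2, a glycolytic enolase, had 479 and 401 against 1319 and 1271 (log2 fold change -1.56, SE 0.16), and CKMT1A, a mitochondrial creatine kinase, had 23.2 and 22.04 against 55.4 and 76.1 (-1.55, SE 0.16). TPI1, PHKB and PDHB were not called, with log2 fold changes of 0.20, 0.23 and 0.37. In the members of 10 or more AQP8 UMIs, 4 were called higher and 5 lower, against 16.8% and 18.4% of all genes.

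Lipid and sterol genes were called higher in 14 of 44 tested and lower in 2, against 14.5% and 13.3% of all genes. The list median was a log2 fold change of 0.31. The largest differences were in fatty acid handling. ACSL1-1, which activates long-chain fatty acids, had 485 and 599 scaled CPM in members against 5.51 and 8.73 in comparison barcodes (log2 fold change 6.28, SE 0.19), ELOVL5, an elongase of polyunsaturated fatty acids, had 688 and 1093 against 87.2 and 92.03 (3.28, SE 0.19), and HADHA of mitochondrial beta oxidation had 82.2 and 113 against 18.1 and 22.03 (2.28, SE 0.13). DBI, FASN and ACACA, of acyl-CoA binding and fatty acid synthesis, were not called, with log2 fold changes of 0.68, 0.59 and -0.52. ELOVL6 and ACSL4.1 were the lower ones, at -1.55 and -1.04.

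Signalling genes of Notch were called higher in 7 of 15 tested and lower in 0, against 14.5% and 13.3% of all genes. The list median was a log2 fold change of 0.74. NRARP, a target and damper of Notch, had 158 and 230.0 scaled CPM in members against 4.94 and 4.90 in comparison barcodes (log2 fold change 5.28, SE 0.18). JAG1, a Notch ligand, had 59.3 and 86.9 against 3.68 and 7.10 (3.79, SE 0.16), and DLL1, another ligand, had 11.7 and 9.79 against 2.07 and 2.32 (2.27, SE 0.27). Ligands, the DNA-binding partner RBPJ (1.66) and the targets HES1 and NRARP were thus all higher in members. DTX1-1 and ADAM17 were not called, at 0.29 and 0.18, and NEURL1 was at -0.77 and was called lower only in the members of 10 or more AQP8 UMIs.

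Growth factor, BMP, Wnt and Hippo genes had a median log2 fold change of -0.18. Of 30 tested, 12 were called higher and 5 lower, against 14.5% and 13.3% of all genes. The receptor genes TGFBR2 and BMPR1B had the largest changes among the higher ones, whereas FGFR2, also a receptor gene, was called lower. SFRP5, EGF and FST were called lower too. TGFBR2, a TGF-beta receptor, had 51.3 and 62.6 scaled CPM in members against 1.55 and 0.717 in comparison barcodes (log2 fold change 5.72, SE 0.31), BMPR1B, a BMP receptor, had 35.8 and 53.0 against 2.71 and 1.199, and HHIP, which binds hedgehog ligands, had 57.1 and 134 against 5.23 and 3.57 (4.38, SE 0.38). LGR5, a receptor that strengthens Wnt signalling, had 326 and 588 against 74.8 and 88.8 (2.43, SE 0.18) and lies outside the naming rule. VEGFC was called lower on few counts, with 1 and 0 UMIs in members, and BMPR2, SMAD6 and AXIN1 were under 2-fold at 0.75, 0.82 and -0.89. AXIN1 was called lower, at -1.04, in the members of 10 or more AQP8 UMIs.

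Glutathione and antioxidant genes were called higher in 12 of 31 tested and lower in 1, against 14.5% and 13.3% of all genes. The list median was a log2 fold change of 0.46. HPGDS, a glutathione transferase that makes prostaglandin D2, had 49.7 and 65.9 scaled CPM in members against 2.57 and 6.67 in comparison barcodes (log2 fold change 3.74, SE 0.23), and ALDH9A1, an aldehyde dehydrogenase, had 36.05 and 76.6 against 4.53 and 9.84 (2.97, SE 0.14). GPX7, a peroxidase of the endoplasmic reticulum, had 6.01 and 9.95 against 0.534 and 0.834. The abundant antioxidant genes TXN, PRDX5 and GPX4 were not called, with log2 fold changes of 0.34, 0.27 and 0.01. GCLM, a subunit of the first enzyme of glutathione synthesis, was the lower one at -1.07.

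Genes of the matrix and its receptors were called higher in 7 of 20 tested and lower in 5, against 14.5% and 13.3% of all genes. The list median was a log2 fold change of -0.20. ITGB4, an integrin that anchors epithelia to the basement membrane, had 43.1 and 65.2 scaled CPM in members against 1.47 and 1.43 in comparison barcodes (log2 fold change 5.21, SE 0.20), SNTB1, a syntrophin of the dystrophin complex, had 47.5 and 44.1 against 1.73 and 1.66 (4.76, SE 0.16), and COL4A6, a basement membrane collagen, had 272 and 235 against 58.5 and 39.7 (2.39, SE 0.15). LAMA5, SGCB and HSPG2 were not called, at 0.04, 0.41 and -0.44. CSPG5, a neural proteoglycan, was called lower at under 1 scaled CPM in members.

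Junction, polarity and cell cortex genes were called higher in 14 of 32 tested and lower in 3, against 14.5% and 13.3% of all genes. In the members of 10 or more AQP8 UMIs these counts were 16 and 4, against 16.8% and 18.4%. The list median over all members was a log2 fold change of 0.77. PXN, the focal adhesion protein paxillin, had 71.3 and 137 scaled CPM in members against 2.01 and 2.53 in comparison barcodes (log2 fold change 5.48, SE 0.19). EPB41L5, a protein of the apical border of epithelia, had 268 and 272 against 8.90 and 9.03 (4.91, SE 0.15), and CGNL1, a protein of tight and adherens junctions, had 264 and 491 against 15.4 and 18.1 (4.43, SE 0.20). CTNND2.1 and AFDN were not called, at -0.04 and 0.97, and DLG1.1 was at -0.77. In the members of 10 or more AQP8 UMIs AFDN was called higher, at 1.08, and DLG1.1 lower, at -1.15. GJA3, a connexin, was called lower on few counts, with 0 UMIs in members of both libraries against 26 and 42 in comparison barcodes. These are unscaled UMIs, and the comparison sums are far larger than the member sums.

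Retinoid genes were called higher in 5 of 13 tested and lower in 0, against 14.5% and 13.3% of all genes. The list median was a log2 fold change of 0.76. DHRS3, which turns retinal back into retinol, had 628 and 948 scaled CPM in members against 38.9 and 81.7 in comparison barcodes (log2 fold change 3.77, SE 0.18), and ALDH1A2.1, which makes retinoic acid, had 36.9 and 46.7 against 1.58 and 2.23 (4.46, SE 0.17). CYP26A1, which clears retinoic acid, was called higher from 7 and 48 UMIs in members, and RDH13, a retinol dehydrogenase, had 4.37 and 7.98 scaled CPM against 1.16 and 1.49. RBP3, a carrier in the space around photoreceptors, and RPE65, an enzyme of the pigment epithelium, stayed under 1 scaled CPM in both sets and were not called.

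Stress and early response genes, which dissociation can switch on, had a median log2 fold change of 0.65. Of 14 tested, 7 were called higher and 2 lower, against 14.5% and 13.3% of all genes. NFKBIA, the inhibitor of NF-kappaB, had 14.5 and 16.4 scaled CPM in members against 0.370 and 0.300 in comparison barcodes (log2 fold change 5.53, SE 0.31), and CEBPD, a transcription factor of acute responses, had 46.7 and 54.1 against 4.85 and 3.99 (3.53, SE 0.17). NR4A2 and DUSP1, both early response genes, were lower, at -1.96 and -1.72. In the lamprey retina the paper also gives NR4A2 as a marker of a ganglion cell subgroup. HSP90B1, HSPE1 and KLF10 were not called, with log2 fold changes of 0.29, 0.14 and 0.10. The percentage of UMIs from mitochondrial genes was 0.0881 and 0.176 in members against 0.191 and 0.473 in comparison barcodes, and the part of dissociation in these values was not tested.

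Genes lower in members included many genes of neurons. Of the 15 tested genes of synaptic vesicle release 0 were called higher and 11 lower, against 14.5% and 13.3% of all genes. Their median log2 fold change was -1.49. In the members of 10 or more AQP8 UMIs 13 were lower, against 18.4% of all genes, with a median of -2.09. SYT7, a calcium sensor of release, had 158 and 118 scaled CPM in members against 447 and 463 in comparison barcodes (log2 fold change -1.74, SE 0.17), and DNM1, which pinches off vesicles, had 18.8 and 21.4 against 68.1 and 74.3 (-1.82, SE 0.13). CPLX1, a complexin that binds the release machinery, still had 1634 and 1105 scaled CPM in members against 4223 and 3894 (-1.59, SE 0.20). Neuronal transcripts were thus lower but far from 0 in the member sums.

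The 10 named genes of largest difference in the lower direction had log2 fold changes of -3.15 to -2.35. CARTPT, a neuropeptide gene, had 3.82 and 5.92 scaled CPM in members against 35.6 and 51.2 in comparison barcodes (log2 fold change -3.15, SE 0.17, edgeR adjusted p = 3.05e-06). The vesicular transporters of glutamate, SLC17A6, and of GABA and glycine, SLC32A1, had 4.37 and 10.5 against 35.4 and 53.9, and 24.3 and 23.4 against 141 and 133. PRDM13, a transcription factor of amacrine cells in jawed vertebrates, had 17.8 and 12.9 scaled CPM against 106 and 80.4. In the lamprey the paper gives PRDM13 as a marker of a subgroup of ganglion cells. SLC6A5, a neuronal glycine transporter, had 16.1 and 8.22 against 77.3 and 53.7. The receptor genes CHRNA7, GPR22 and HTR2A, the calcium channel subunit gene CACNA2D3.1 and the cell surface gene PRTG made up the rest. In the members of 10 or more AQP8 UMIs the log2 fold changes of these 10 genes were -3.80 to -2.48, and several levels were lower, mainly in replicate 1. CARTPT had 0.376 and 4.74 scaled CPM there in replicates 1 and 2, CHRNA7 2.25 and 8.74, PRDM13 4.51 and 10.02, and SLC6A5 7.51 and 7.29.

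Markers of the other cell types are given for the genes of each list that were found by name and are reported here. These were 8 of 15 for amacrine cells, 2 of 21 for general neurons, 5 of 14 for bipolar cells and 8 of 24 for photoreceptors. For horizontal cells there were 4 of 9, for ganglion cells 4 of 11 and for pigment epithelium 7 of 11. For endothelium and pericytes, dividing cells, and astrocytes and oligodendrocytes there were 8 of 18, 6 of 14 and 3 of 14. For all marker lists, the shares of all genes to set beside the calls are 14.5% higher and 13.3% lower. In the members of 10 or more AQP8 UMIs they are 16.8% and 18.4%. Amacrine markers were lower in 6 of 8 tested and higher in 0. PRDM13, which the paper gives as a marker of a ganglion cell subgroup in the lamprey, is among the lower ones. Their sum was 1184 and 866 scaled CPM in members of replicates 1 and 2 against 2609 and 2488 in comparison barcodes. In the members of 10 or more AQP8 UMIs the amacrine sum was 307 and 598 scaled CPM, and all 8 were called lower. GAD1, which makes GABA, had 542 and 385 scaled CPM in all members, and in the members of 1 to 4 AQP8 UMIs its level of 1630.5 and 1732 unscaled CPM was no lower than the 1502 and 1340 of comparison barcodes. Without the members of few AQP8 UMIs the amacrine sum was thus lower, and more so in replicate 1.

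General neuronal markers summed to 647 and 543 scaled CPM in members against 1289.8 and 1299 in comparison barcodes, with ELAVL4 lower and MAP1B not called, of 2 tested. Bipolar markers summed to 827 and 650.3 against 1840.3 and 1973, with 0 of 5 higher and 4 lower. Photoreceptor markers were low in both sets, at 11.5 and 13.8 against 27.4 and 33.4, with 4 of 8 lower and 0 higher. Horizontal cell markers summed to 99.4 and 75.0 against 208 and 243 (2 of 4 lower), ganglion cell markers to 23.2 and 23.5 against 84.4 and 91.6 (2 of 4 lower, POU4F2 at 0 UMIs in members), and pigment epithelium markers to 8.74 and 6.74 against 13.3 and 8.50 (1 of 6 lower). None of these sums was higher in members than in comparison barcodes in either library. In the members of 10 or more AQP8 UMIs the sums were 474 and 480.4 scaled CPM for general neuronal markers, 353 and 483 for bipolar markers, of which all 5 were called lower, and 24.04 and 58.7 for horizontal cell markers. Those of ganglion cell markers were 20.3 and 22.5, with 3 of 4 called lower.

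**Figure D4:**
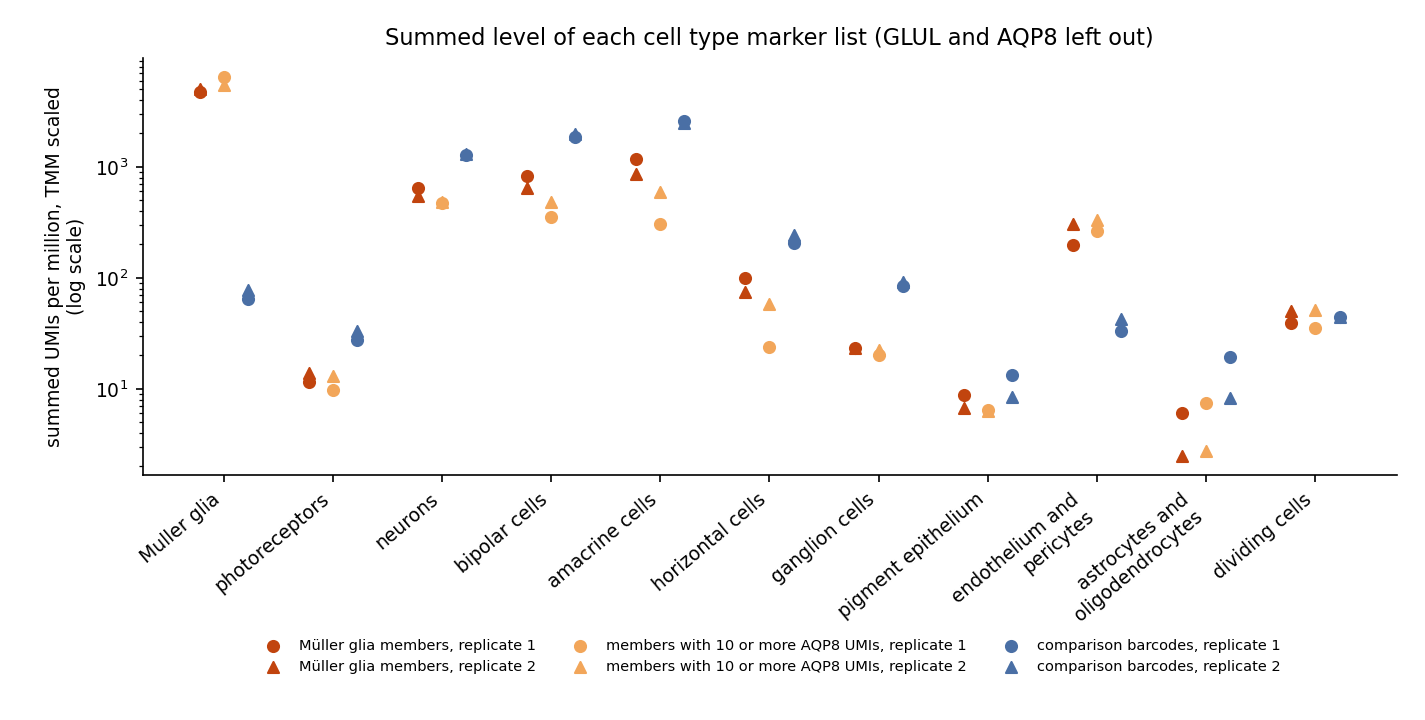
Summed scaled CPM (log axis) of each cell type marker list, GLUL and AQP8 left out, in all members, in members of 10 or more AQP8 UMIs and in comparison barcodes, with a circle for replicate 1 and a triangle for replicate 2. The Müller glia list, with 5 genes found beside GLUL and AQP8, stands at 4767 and 5038 in members against 64.3 and 77.2 in comparison barcodes. Most of that sum is CLU alone, at 4584 and 4820 in members and 56.0 and 69.1 in comparison barcodes. The amacrine list stands at 1184 and 866 against 2609 and 2488.

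The list of endothelium and pericytes was the other one with a higher sum in members in both libraries, at 199 and 303 scaled CPM against 33.2 and 42.1 in comparison barcodes. The sum came from genes named after collagen I, since COL1A1.20, COL1A1.12 and COL1A2.4 were called higher and the other 4 of 7 tested were not called. Of the defining markers of vessels, TAL1 had 0 UMIs in members, and VWF had 1.09 and 6.25 scaled CPM against 0.972 and 2.24. VWF was called higher in the members of 10 or more AQP8 UMIs, at 1.503 and 6.83 scaled CPM (log2 fold change 1.35). Markers of dividing cells summed to 39.1 and 50.4 scaled CPM in members against 44.7 and 44.7, with 0 of 5 called in either direction. Of the astrocyte and oligodendrocyte markers, PAX2 was lower and AQP4 was not called, of 2 tested. No named gene matched the lists of microglia and blood cells or of red blood cells, so these could not be examined.

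Members also differed among themselves. In the 201 and 918 members of at least 2000 UMIs, thinned to 2000 UMIs each, the variance of a gene's UMIs over their mean had a median of 1.03 over 3383 genes, the value that counting alone gives being close to 1. The named genes of largest ratio were mostly neuronal. CHAT, which makes acetylcholine, had ratios of 6.71 and 6.62 in replicates 1 and 2, CPLX1 8.73 and 5.70, ABCF4 5.06 and 5.14, and CACNA2D2, a calcium channel subunit gene, 4.97 and 4.44. CPNE4.1, TRHDE, GAD1, DSCAM and SYT7 followed with values between 3.32 and 6.05. FTH1 was the one of these 10 found in nearly all members, with 13.8 and 14.9 thinned UMIs a cell and ratios of 4.04 and 4.22.

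In the members of 10 or more AQP8 UMIs (148 and 823 of them after thinning), 6 of these 10 genes were again among the 10 of largest ratio, and the ratios were smaller. CPLX1 had 4.61 and 3.54 and FTH1 2.32 and 3.02, while CHAT, CPNE4.1, GAD1 and SYT7 left the list. ELAVL4, ATP1B2, SEZ6 and C1QTNF3 entered it. The neuronal marker ELAVL4 had ratios of 2.50 and 2.53, ATP1B2 2.24 and 1.90, and SEZ6 2.05 and 1.86. C1QTNF3, a secreted protein of the C1q and TNF family, had ratios of 2.13 and 9.11. It was found in 27.7% of these members in replicate 1 and 44.7% in replicate 2, and its highest thinned counts were 5 and 38 UMIs. Scrublet, which scores barcodes for the mixing of 2 cells, called 0 of 12933 barcodes of replicate 1 at its own threshold, where it had not worked. In replicate 2 it called 143 members (15.5%) and 2.86% of comparison barcodes, and with the same threshold in replicate 1 23 members (11.4%) and 2.17%. These barcodes were kept, and the part of mixed droplets in the neuronal transcripts of members was not tested.

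The 2 libraries gave similar profiles of the summed members, with a Spearman correlation across genes of 0.966 between the members of replicates 2 and 1. It was 0.937 and 0.947 between members and comparison barcodes within replicates 1 and 2. Genes are not independent replicates, and the member sums share depth and base composition within a library. Of 6870 genes with at least 20 scaled CPM in the members of both libraries, 160 (2.33%) differed by at least 2-fold between the libraries, and of 6625 in comparison barcodes 30 (0.453%) did. The member sums rest on 202 cells in replicate 1 and 924 in replicate 2, of which 24.8% and 8.12% had 1 to 4 AQP8 UMIs. In the members of 10 or more AQP8 UMIs, 139 of 6603 genes differed by at least 2-fold. The part of cell number and of low AQP8 members in these differences was not tested.

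C1QTNF3 differed most between the libraries among the named genes called higher in members. It had 1047 scaled CPM in members of replicate 2 and 179 in those of replicate 1, against 14.2 and 4.56 in comparison barcodes of these libraries, and was thus higher in members in both. Its log2 ratio of replicate 2 to replicate 1 was 2.55 in members, 2.24 in members of 10 or more AQP8 UMIs and 1.54 in comparison barcodes. DUT, which clears dUTP, had a ratio of 1.83 in members and 0.18 in comparison barcodes, FBLN7 1.64 and 0.71, MEGF6 1.56 and 0.42, and CRIM1, which binds BMPs, 1.26 and 0.09. CCDC74B and SLC30A7, a zinc transporter, ran the other way, at -1.15 and -1.11 in members and -0.36 and -0.30 in comparison barcodes. With 1 library per replicate these are differences between 2 libraries, and their part in any trait of the animals cannot be told apart from handling.

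**Figure D5:**
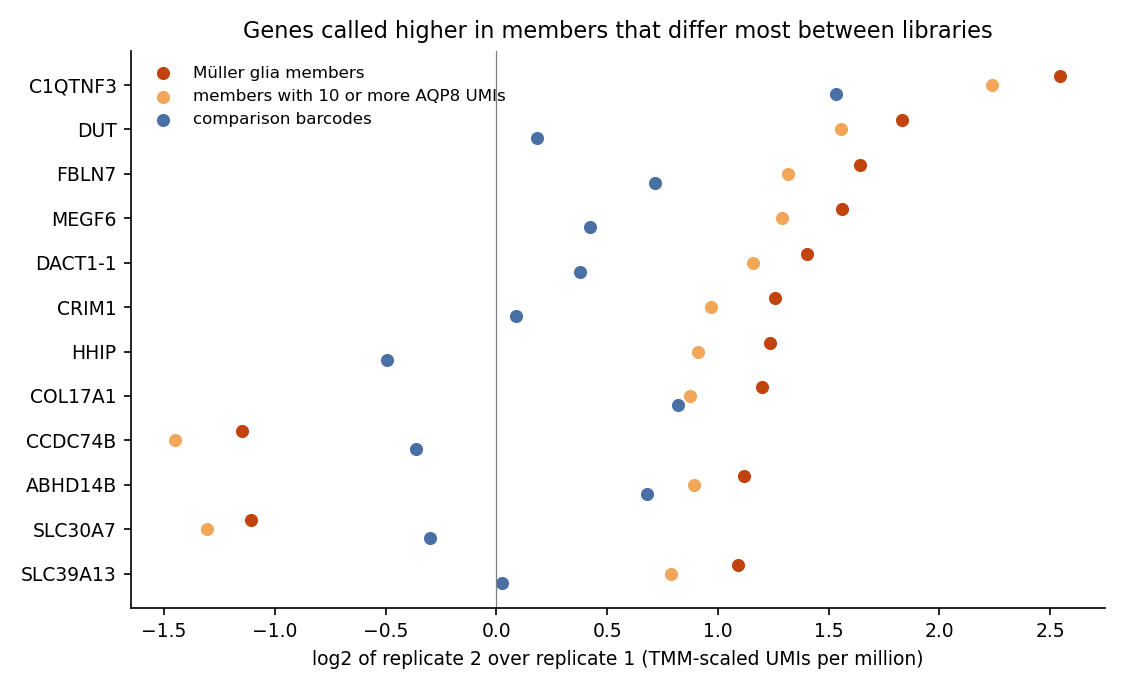
Log2 ratio of replicate 2 to replicate 1 in scaled CPM for the 12 named genes called higher in members that differed most between the libraries, in all members, in members of 10 or more AQP8 UMIs and in comparison barcodes. C1QTNF3 stands at 2.55, 2.24 and 1.54, and CCDC74B at -1.15 in members and -0.36 in comparison barcodes.

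5 further genes were singled out after their values were seen. The matricellular genes CCN1 and CCN2, targets of Hippo signalling, had 10.2 and 30.9 scaled CPM in members of replicate 2, against 0.821 and 2.58 in comparison barcodes. In replicate 1 they had 1.37 and 4.64 in members against 1.11 and 3.14, so that their calls as higher in members rested mainly on replicate 2. The sterol synthesis genes MSMO1, LSS and TM7SF2 had 109, 64.0 and 61.8 scaled CPM in members of replicate 2 and 23.2, 9.56 and 9.83 in members of replicate 1. In comparison barcodes they had 49.4, 35.1 and 29.8 in replicate 2 and 28.5, 18.5 and 20.2 in replicate 1, so these 3 genes were above comparison barcodes in replicate 2 and below them in replicate 1. None of these 3 was called over both libraries. NSDHL and IDI1, also of sterol synthesis, were higher in members in both libraries and were called higher. NSDHL had 29.2 and 62.0 scaled CPM in members of replicates 1 and 2 against 20.3 and 23.8 in comparison barcodes, and IDI1 had 35.8 and 74.4 against 18.5 and 32.2.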

How the data were processed

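Droplet-based 3' single-cell libraries of adult sea lamprey retina were analysed, 1 per replicate. Reads had been mapped by the authors to an extended NCBI and TruSeq transcriptome (Cell Ranger), who deposited raw UMI counts per gene and barcode, without normalization and before their own cell filters, which were not repeated here. The file headers give Cell Ranger 7.0.1 and the submitters' processing notes 6.0.1, and the labels name an earlier kit version than the methods and a sort. The libraries held 87882951 and 117426390 UMIs in replicates 1 and 2, and 12903 and 15936 barcodes passed the limits on UMIs and genes. Names came from the paper's first supplementary gene table (1998 genes), the deposited gene list (5432) and RefSeq (559, from a table of assembly UKy_Petmar_22M1.pri1.0 whose coordinates were not used), which left 16990 of 24979 genes unnamed. AQP8 and CLU were found by that supplementary table.

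UMIs were summed per library and set, giving 4 sums, and fitted with edgeR 4.0.16 in R 4.3.3 (TMM, filterByExpr, glmQLFit, glmQLFTest), with the library as a block because both sets came from the same library. 1 residual degree of freedom was left, so the spread was borrowed across genes. Cells were not treated as replicates. The edgeR fit was also run on simulated counts with the same spread for every gene and no difference between libraries. Such counts cannot show its error rates in these data. Python 3.11.15 with numpy 2.4.6, pandas 2.3.3, scipy 1.17.1, scanpy 1.11.5 (Scrublet at an expected doublet rate of 0.08) and matplotlib 3.10.9 did the rest. The members and gene lists were chosen with earlier results of these data known.

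The text names GLUL, AQP8, CLU and HES1, the 15 named genes of largest change higher and 10 lower (called, at least 20 scaled CPM in both libraries of the higher set, 1 direction), the 10 of highest level, up to 4 called and 3 uncalled genes of each list, the 10 of largest variance over mean, and some further list genes chosen after their values were seen. Alternatives were the other scalings, filters, tool, block, gene limit, doublet removal, thinning and limits on GLUL and AQP8. Some genes are not reported here and were left out of the gene lists.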

Additional observations from a re-analysis of the deposited data

How the results depend on the processing

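The count of genes lower in members was 2265, and it fell to 659, of which 641 were shared, when a GLUL minimum of 3 UMIs admitted 362 and 1294 members. Of the counts of called genes, this was the one that moved by more than 1.5 times over the alternatives run. With no replicate block, that is without pairing the 2 sums of a library, 2202 genes were higher and 1692 lower, and CPLX3, CPLX4, VEGFC and GJA3 lost their calls. DESeq2 1.42.0 gave 2313 higher and 1803 lower, and library totals alone 2030 and 2829. Over 14 other fits, 72 of the 82 called named genes kept their call and direction, 10 lost the call at least once and 0 reversed, and 9 uncalled ones gained it. Uncalled genes that changed sign were BASP1 (0.0125 with a GLUL minimum of 3 UMIs, 0.01995 with thinned cells), DLD (-0.15 with library totals, -0.00926 with no filter on low counts), PHKB (-0.0736 thinned), ADAM17 (-0.0114 with library totals), HSPE1 (-0.0494 with library totals), KLF10 (-0.0896 with library totals), GPX4 (-0.18 with library totals, -0.0368 with no filter, -0.00753 with a GLUL minimum of 10 UMIs, -0.0167 with an AQP8 minimum of 10 UMIs) and LAMA5 (-0.15 with library totals, -0.0126 with no filter, -0.00111 with a GLUL minimum of 10 UMIs, -0.00629 with an AQP8 minimum of 2 UMIs, -0.0108 with barcodes over 1 Scrublet threshold removed), all as log2 fold changes, and the cause was not tested. Of the 10 named genes that varied most among members, 6 were shared with an AQP8 minimum of 10 UMIs. The share of members was 1.57% without replicate 2 and 5.80% without replicate 1. Gene counts have no value without a replicate, since 1 library leaves no spread to test against. The AQP8 minimum of 10 UMIs and the single Scrublet threshold were chosen after seeing the data.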
